A study of Mus musculus with 48 samples.

Results

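The 34 genes of fatty acid oxidation and of the peroxisome proliferator-activated receptors (PPARs) were followed in the colon of mice with and without *Bmal1* in the intestinal epithelium. They were chosen by symbol, as the rows of the count table whose Ensembl identifiers carry these symbols in GENCODE vM21, and they make up 34 of the 55401 genes in the table. The rule itself uses symbols and no measured value. The members fall into 7 roles, which are the PPAR receptors with a coactivator, the carnitine shuttle, mitochondrial beta oxidation, the electron transfer flavoprotein, the oxidation of unsaturated fatty acids, peroxisomal beta oxidation, and PPAR target genes of lipid handling.

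Long-chain fatty acids enter mitochondria as carnitine esters and are then shortened stepwise by an acyl-CoA dehydrogenase, a hydratase, a hydroxyacyl-CoA dehydrogenase and a thiolase. Peroxisomes shorten very long chains with a parallel set of enzymes. PPARs are nuclear receptors that bind fatty acids and, paired with a retinoid X receptor, raise the transcription of most of these enzymes. BMAL1 is the core clock activator that binds E-boxes with CLOCK, and its rhythmic targets include the nuclear receptors of the REV-ERB family.

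Colon RNA came from 48 male C57BL/6J mice aged 18 to 20 weeks, single-housed with free access to chow and a wheel, on their second day in constant darkness. Bmal1iec-/- mice carried 2 floxed *Bmal1* alleles and the Villin CRE/wt transgene, which deletes the gene in intestinal epithelial cells while muscle, stroma, vessels and immune cells of the colon keep it. Bmal1fl/fl mice were control littermates with the same floxed alleles and Villin wt/wt. Each genotype was sampled at circadian times (CT) 1, 5, 9, 13, 17 and 21 with 4 mice per time, and CT1, CT5 and CT9 were taken as the subjective day and CT13, CT17 and CT21 as the night. Total counts ran from 3144997 to 4785844 reads per mouse (median 3868331), and no label gives a sequencing batch.

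The deletion was visible in the clock. *Arntl*, the gene of BMAL1, fell in Bmal1fl/fl mice from 258 ± 17.9 normalised read counts (reads divided by the library's DESeq2 size factor) at CT1 to 26.2 ± 8.74 at CT9 (mean ± SD, n = 4, here and in all such values), and in Bmal1iec-/- mice it read 138 ± 43.2 and 113 ± 30.8 at these times. Its rhythm changed between the genotypes (edgeR adjusted p = 9.4e-14). The Bmal1iec-/- mean of *Arntl* at CT1 was 176 without SV384 and SV385, a pair described below. The rhythm test JTK_cycle did not call *Arntl* in Bmal1iec-/- mice with this pair (exact p = 0.212). Without the pair it called *Arntl* rhythmic in Bmal1iec-/- mice (exact p = 0.00568). *Nr1d1*, which encodes REV-ERB alpha, was lower in Bmal1iec-/- mice (log2 fold change -1.56, SE 0.129, edgeR adjusted p = 2.04e-13). Markers of the epithelium, of goblet cells and of smooth muscle were abundant in both genotypes, as in whole colon. Of 9 small intestine markers, *Apoa1*, *Apoa4*, *Lct* and *Defa24* had a median at or under 3 counts. Scaled to the total of each library (CPM), the 9 markers summed to 150 to 347 in Bmal1fl/fl mice (median 243). In Bmal1iec-/- mice they summed to 80.8 to 285 CPM (median 154). Of the 5 small intestine markers tested, 1 was higher and 2 were lower in Bmal1iec-/- mice.

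A pair of Bmal1iec-/- mice at CT1, SV384 and SV385, stood apart from the other 22 mice of that genotype. Both mice lay above all 22 for 16 of the 33 members tested (48.5%), against 6.36% of all genes tested. Its smooth muscle markers summed to 774 and 3183 CPM (counts scaled to the total of each library), against a range of 3555 to 5705 in Bmal1fl/fl mice, and its epithelial markers to 6712 and 8333 CPM, against 4791 to 6635. Results are given over all 48 mice, and over the 46 mice without this pair where the pair moved them. The part of tissue make-up in the CT1 values was not tested.

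Levels spanned a wide range. Counts per kilobase of exon, averaged over Bmal1fl/fl mice, were 1193 for *Fabp2*, the intestinal fatty acid binding protein, 409 for *Acaa2*, 396 for *Etfa*, 336 for *Acads* and for *Acadl*, and 328 for *Ucp2*. At the low end stood *Angptl4* with 15.0, *Acot2* with 8.73, *Acot1* with 5.58 and *Fabp1* with 4.33 counts per kilobase. *Fabp1*, the liver form of the binding protein, had at most 13.9 normalised read counts in any mouse and averaged 2.39 in Bmal1fl/fl and 3.18 in Bmal1iec-/- mice. It was the 1 member removed by the filter for low expression and was not tested between the genotypes, so that 33 members entered the tests.

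Promoters are shown to set the members beside the clock and PPAR motifs that could be read from sequence. RefSeq promoters of the build GRCm38.p6, from 250 bases before to 50 bases after the start, were at hand for 30 of the 34 members and for 27025 genes in all. None was at hand for *Acaa2*, *Hsd17b4*, *Angptl4* and *Decr1*, which were not searched. Both strands were searched for the E-box CACGTG, the D-box TTATGTAA, the half-site TAGGTCA that ROR and REV-ERB receptors bind, and the PPAR element, a direct repeat of AGGTCA with 1 base between, allowing 2 mismatches. The E-box was in 1 member, *Plin2* (3.33%), against 8.09% of all promoters, and the D-box in 0 members against 1.11%. The half-site was in *Acadvl*, *Plin2* and *Fabp1* (10%), against 2.97%. The PPAR repeat was in *Slc25a20*, *Etfa*, *Plin2*, *Cd36* and *Fabp1* (16.7%), against 4.40%. In *Plin2* and *Fabp1* the half-site overlaps the repeat. *Plin2* was thus the 1 member with 3 of the motifs, and its E-box spans the annotated start. The stretches are written 5′ to 3′ on the gene's strand, and capitals mark the motif matches.
Plin2, chr4:86670050-86670309, minus strand: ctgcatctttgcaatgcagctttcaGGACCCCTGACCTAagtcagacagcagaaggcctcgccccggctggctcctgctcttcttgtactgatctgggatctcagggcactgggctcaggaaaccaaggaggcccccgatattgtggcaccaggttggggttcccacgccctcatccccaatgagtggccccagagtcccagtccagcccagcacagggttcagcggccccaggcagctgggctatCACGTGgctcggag
Acadvl, chr11:70015477-70015556, minus strand: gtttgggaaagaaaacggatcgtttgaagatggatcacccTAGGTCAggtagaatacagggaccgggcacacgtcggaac
Fabp1, chr6:71199772-71199851, plus strand: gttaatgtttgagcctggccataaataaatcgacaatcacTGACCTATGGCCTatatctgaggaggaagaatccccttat
Cd36, chr5:17835920-17835999, minus strand: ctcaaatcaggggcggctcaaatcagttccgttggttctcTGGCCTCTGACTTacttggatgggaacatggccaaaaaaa
Etfa, chr9:55512281-55512360, minus strand: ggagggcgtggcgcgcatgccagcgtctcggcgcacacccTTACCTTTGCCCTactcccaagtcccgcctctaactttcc
Slc25a20, chr9:108662142-108662154, plus strand: AGGTGAAAGGTCG
The 250 bases before the starts of *Ucp2* and *Ppara*, 2 members whose rhythm changed between the genotypes over 48 mice, held none of the 4 motifs.
Ucp2, chr7:100493108-100493357, plus strand: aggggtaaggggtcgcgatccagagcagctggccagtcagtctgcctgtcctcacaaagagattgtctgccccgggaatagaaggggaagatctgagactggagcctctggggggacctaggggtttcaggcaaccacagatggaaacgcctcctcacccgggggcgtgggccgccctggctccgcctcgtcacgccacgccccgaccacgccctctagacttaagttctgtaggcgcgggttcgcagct
Ppara, chr15:85735526-85735775, plus strand: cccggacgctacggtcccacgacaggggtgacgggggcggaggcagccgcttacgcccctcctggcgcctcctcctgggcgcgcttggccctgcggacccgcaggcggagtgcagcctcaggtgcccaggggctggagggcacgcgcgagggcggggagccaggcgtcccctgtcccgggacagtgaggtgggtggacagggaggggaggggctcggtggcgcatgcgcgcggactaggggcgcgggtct

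The receptor genes and the coactivator gene differed in how they moved over the circadian cycle. *Ppara*, the receptor of fasting metabolism (chromosome 15, 85734983 to 85802819 on the plus strand of mm10), averaged 94.6, 133, 177, 189, 142 and 126 normalised read counts in Bmal1fl/fl mice from CT1 to CT21, and 131, 101, 106, 139.7, 124 and 116 in Bmal1iec-/- mice, of which CT1 read 118 without SV384 and SV385. At CT9 the 4 Bmal1fl/fl mice held 152, 159, 179 and 217 counts and the 4 Bmal1iec-/- mice 74.5, 90.1, 113 and 147, so that the groups did not overlap. They did not overlap at CT5 either, where Bmal1fl/fl mice ranged from 127 to 138 and Bmal1iec-/- mice from 88.3 to 118. At the other 4 times the ranges overlapped. Over all times *Ppara* was lower in Bmal1iec-/- mice, with a log2 fold change of -0.25 (SE 0.0841, edgeR adjusted p = 0.0458), and of -0.30 over 46 mice (edgeR adjusted p = 0.0053). The call was lost in 33 of 48 fits that left out 1 mouse, with an edgeR adjusted p of up to 0.0847, and without a term for time. JTK_cycle called it rhythmic in Bmal1fl/fl mice (exact p = 1.4e-06, peak at CT12.0) and not in Bmal1iec-/- mice (exact p = 0.491).

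*Pparg*, the receptor of fat storage that the colon epithelium also expresses, was rhythmic in both genotypes. It ran from 618 ± 50.3 normalised read counts at CT1 to 392.3 ± 34.0 at CT17 in Bmal1fl/fl mice and from 608 ± 45.7 at CT5 to 422 ± 68.8 at CT17 in Bmal1iec-/- mice (JTK_cycle exact p = 0.000113 and 0.00015). The fitted peaks lay at CT4.6 and CT4.0, and the genotypes overlapped at every time. Its log2 fold change was 0.01 (SE 0.0489, edgeR adjusted p = 0.926). *Ppard*, the widely expressed receptor, rose from 433 ± 48.9 at CT1 to 707 ± 18.4 at CT13 in Bmal1fl/fl mice (JTK_cycle exact p = 0.00237). In Bmal1iec-/- mice it read 626 ± 114 at CT1 and 732 ± 82.1 at CT13 (exact p = 0.439), and CT1 came to 539.7 without the pair. *Ppargc1a*, the coactivator of mitochondrial biogenesis, averaged 259.5 ± 41.3 at CT1 and 142 ± 11.5 at CT21 in Bmal1fl/fl mice (exact p = 0.0497), and 189 ± 35.6 and 153 ± 27.7 in Bmal1iec-/- mice (exact p = 0.677). Its Bmal1iec-/- mean at CT1 was 218 without the pair. Neither *Ppard* nor *Ppargc1a* passed the test between the genotypes (edgeR adjusted p = 0.135 and 0.619).

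**Figure D1:**
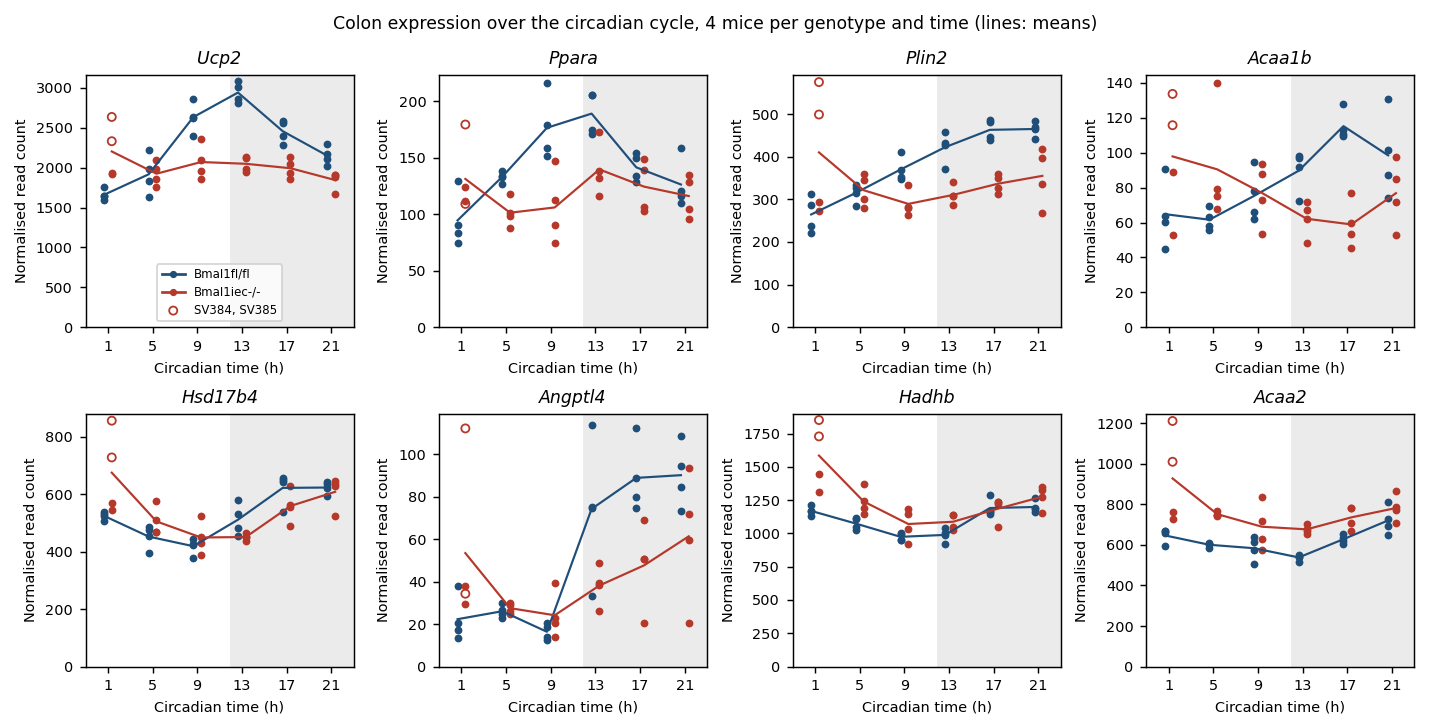
Normalised read counts (vertical axes, from 0) of 8 members against circadian time in h (horizontal axes), with 1 point per mouse, lines through the means of 4 mice, the subjective night shaded, and SV384 and SV385 as open circles. *Ucp2* in Bmal1fl/fl mice climbs from 1660 at CT1 to 2942 at CT13, while the Bmal1iec-/- means stay between 1845 and 2204.

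Between the genotypes, 10 of the 33 members tested were higher in Bmal1iec-/- mice and 3 were lower, where 6.4% of the 14618 genes tested were higher and 5.56% lower. No member passed the threshold together with a fold change of 1.5, which 1.35% of genes did, so the differences averaged over the circadian times were small. Differences at single times or within the night, given below, were larger for some members. Leaving out 1 mouse moved the count of lower members to between 1 and 4, and *Ppara* and *Ucp2* each lost the call in 33 of 48 such fits. With an unadjusted p, 23 of 33 members fell under 0.05, against 26.4% of all genes tested. The log2 fold change was above 0 for 23 of 33 members, against 50.2% of all genes, and its median was 0.12 over the members and 0.00 over all genes. Without SV384 and SV385, 8 members were higher and 4 lower, *Hadha* and *Acot2* no longer passing and *Plin2* joining the lower ones. Of the 15073 genes tested over these 46 mice, 728 were higher and 862 lower. In bulk colon, fewer cells of a type and less RNA per cell cannot be told apart. Of 7 epithelial markers, 4 were higher and 0 lower over 48 mice, and 3 were higher and 1 lower over 46. Their sum ran from 4791 to 6635 CPM in Bmal1fl/fl and from 5292 to 8333 in Bmal1iec-/- mice. Of 7 markers of surface colonocytes, 0 were higher and 3 lower. Their median log2 fold change read -0.23 (-0.30 over 46 mice), with sums of 10243 to 15170 CPM in Bmal1fl/fl and 10324 to 16680 in Bmal1iec-/- mice. Smooth muscle had 1 of 6 markers lower (median -0.24) and endothelium 2 of 5. The part of cell content in the differences of the members was not tested.

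**Figure D2:**
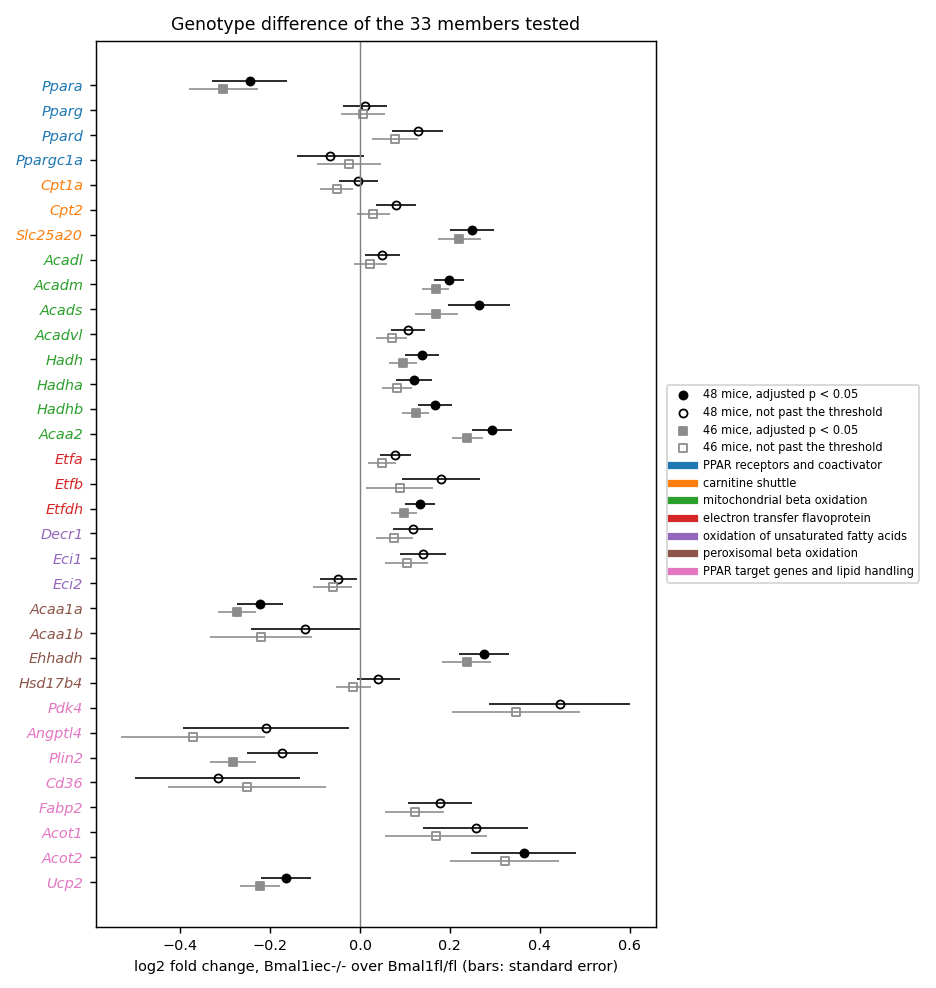
Log2 fold change of Bmal1iec-/- over Bmal1fl/fl mice (horizontal axis, bars are the standard error) for the 33 members tested, ordered and coloured by role. Black circles are 48 mice and grey squares 46 mice, filled where the adjusted p was under 0.05. All 8 members of mitochondrial beta oxidation lie above 0, and *Ppara*, *Acaa1a*, *Plin2* and *Ucp2* are filled below 0 over 46 mice.

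The enzymes of mitochondrial beta oxidation carried most of the higher members. All 8 had a log2 fold change above 0, with a median of 0.15, and 6 passed the test. Over 46 mice all 8 lay above 0, with a median of 0.11, and 5 passed. Without all mice at CT1, *Acads*, *Hadh* and *Hadha* lost the call. *Acaa2*, the thiolase of the last step, averaged 647, 601, 584, 538, 629 and 721 normalised read counts from CT1 to CT21 in Bmal1fl/fl mice, and 928, 752, 690.0, 677, 736 and 782 in Bmal1iec-/- mice. Without SV384 and SV385 its Bmal1iec-/- mean at CT1 was 745. At CT5 the controls held 584, 602, 607 and 609 counts, while Bmal1iec-/- mice held 741, 748, 749.9 and 769. At CT13 the values were 517, 542, 543 and 551 against 652, 671, 679 and 705. The genotypes did not overlap at CT1, CT5, CT13 and CT17, with the Bmal1iec-/- mice above. Its log2 fold change was 0.29 (SE 0.0442, edgeR adjusted p = 2.85e-06), and 0.24 over 46 mice (edgeR adjusted p = 1.29e-06).

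*Acadm*, the medium-chain dehydrogenase at 153922357 to 153944632 on chromosome 3, had the next smallest adjusted p. Its means ran between 678 and 749.8 normalised read counts over the 6 times in Bmal1fl/fl mice and between 739 and 909 in Bmal1iec-/- mice. Without SV384 and SV385 the Bmal1iec-/- means ran between 739 and 846. At CT13 the controls held 673, 683, 707 and 724 counts and the Bmal1iec-/- mice 813, 826, 847 and 898, so that the groups did not overlap. The log2 fold change was 0.20 (SE 0.033, edgeR adjusted p = 1.97e-05), and 0.17 over 46 mice (edgeR adjusted p = 3.99e-05). *Acads*, the short-chain dehydrogenase, differed by 0.26 on the log2 scale (SE 0.07, edgeR adjusted p = 0.00827). Its Bmal1iec-/- mice read 1163 ± 407 at CT1 against 632 ± 25.9 in Bmal1fl/fl mice, and 833 without SV384 and SV385. The log2 fold change of *Acads* over 46 mice was 0.17 (edgeR adjusted p = 0.016).

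*Hadha* and *Hadhb*, the subunits of the trifunctional protein that takes long chains through the last 3 steps, had log2 fold changes of 0.12 (SE 0.0391, edgeR adjusted p = 0.0356) and 0.17 (SE 0.0373, edgeR adjusted p = 0.00146). The genes lie head to head on chromosome 5, *Hadha* at 30118304 to 30155162 on the minus strand and *Hadhb* at 30155248 to 30184593 on the plus strand of mm10. At CT5 *Hadhb* held 1023, 1047, 1109.7 and 1117 normalised read counts in Bmal1fl/fl mice and 1149, 1193, 1245 and 1373 in Bmal1iec-/- mice. The groups of both genes were apart at CT1 and CT5 and overlapped at the other 4 times. Over 46 mice *Hadhb* kept its call (0.12, edgeR adjusted p = 0.00351) and *Hadha* lost it (0.08, edgeR adjusted p = 0.118). *Hadh*, the short-chain hydroxyacyl-CoA dehydrogenase, was higher by 0.14 (SE 0.0377, edgeR adjusted p = 0.0111). The other members of the group did not pass the test, with log2 fold changes of 0.11 for *Acadvl* (edgeR adjusted p = 0.0564) and 0.05 for *Acadl* (edgeR adjusted p = 0.443). Of the exon bases of *Acadvl*, 42.9% overlap *Dvl2* on the opposite strand, and the strand setting of the counting is not given in the sources used here, so its counts are uncertain.

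In the carnitine shuttle, 1 of 3 members passed. *Slc25a20*, the carrier that moves acylcarnitine across the inner membrane, averaged 639, 640.1, 605, 474, 566 and 609.8 normalised read counts from CT1 to CT21 in Bmal1fl/fl mice. The Bmal1iec-/- means were 843, 790.1, 762, 624, 558 and 643, higher at the first 4 times and close to the controls at CT17 and CT21. At CT1 the Bmal1iec-/- mean was 772 without SV384 and SV385. The groups did not overlap at CT1, CT5 and CT9. The log2 fold change was 0.25 (SE 0.0486, edgeR adjusted p = 0.000252) and 0.22 over 46 mice (edgeR adjusted p = 0.000916). *Cpt1a*, whose protein loads fatty acids onto carnitine at the outer membrane and is taken as the entry gate of the pathway, had a log2 fold change of -0.00 (SE 0.0433, edgeR adjusted p = 0.972). Its groups overlapped at all 6 times. *Cpt2*, the enzyme of the inner side, read 0.08 (SE 0.045, edgeR adjusted p = 0.253). In Bmal1fl/fl mice *Cpt2* ran from 387 ± 39.5 normalised read counts at CT1 to 544 ± 46.1 at CT13 (JTK_cycle exact p = 0.00057). The Bmal1iec-/- means lay between 448 and 525, and between 448 and 514 without the pair, and no rhythm was called (exact p = 1).

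The electron transfer flavoprotein passes electrons from the dehydrogenases to the respiratory chain, and 1 of its 3 genes passed. *Etfdh*, the oxidoreductase at the membrane, was higher by 0.13 on the log2 scale (SE 0.0331, edgeR adjusted p = 0.00477). At CT13 it held between 479 and 528 normalised read counts in Bmal1fl/fl mice and between 552 and 572 in Bmal1iec-/- mice, and there the groups did not overlap. The soluble subunits *Etfa* (0.08, SE 0.0346, edgeR adjusted p = 0.133) and *Etfb* (0.18, SE 0.087, edgeR adjusted p = 0.175) did not pass. Of the exon bases of *Etfb*, 53.0% overlap *Gm45233* on the same strand, and reads on more than 1 gene were not counted by the authors. None of the 3 members that handle double bonds passed, with log2 fold changes of 0.14 for the isomerase *Eci1* and -0.05 for *Eci2* (edgeR adjusted p = 0.0595 and 0.495).

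Peroxisomal members went both ways. *Ehhadh*, the bifunctional enzyme and a classical PPAR alpha target, was higher in Bmal1iec-/- mice by 0.28 on the log2 scale (SE 0.0564, edgeR adjusted p = 0.000499), and by 0.24 over 46 mice (edgeR adjusted p = 0.00203). It fell in Bmal1fl/fl mice from 495 ± 25.6 normalised read counts at CT1 to 304 ± 24.5 at CT9 and stood at 542 ± 33.2 at CT21, and in Bmal1iec-/- mice it read 614 ± 136, 431 ± 69.3 and 568 ± 68.7 at these times. Its Bmal1iec-/- mean at CT1 came to 511 without the pair, close to that of the controls. The groups of *Ehhadh* did not overlap at CT9. *Acaa1a*, a peroxisomal thiolase, was lower, with a log2 fold change of -0.22 (SE 0.0502, edgeR adjusted p = 0.0016), and of -0.27 over 46 mice (edgeR adjusted p = 5.95e-06). Its means climbed from 372 ± 19.1 at CT1 to 553 ± 48.2 at CT13 in Bmal1fl/fl mice and lay between 393 and 422 at all 6 times in Bmal1iec-/- mice. Without SV384 and SV385 the Bmal1iec-/- mean at CT1 was 364. At CT13 the controls held 485, 554, 585 and 589 counts and the Bmal1iec-/- mice 374, 391.8, 419 and 444. The groups were also apart at CT21.

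The second thiolase gene, *Acaa1b* (chromosome 9, 119148023 to 119157093, with *Acaa1a* at 119339676 to 119350299), had a time course of another shape in each genotype. From CT1 to CT21 it averaged 64.8, 61.6, 75.2, 89.7, 115 and 98.5 normalised read counts in Bmal1fl/fl mice, and 97.9, 90.5, 76.9, 62.2, 58.9 and 76.8 in Bmal1iec-/- mice, with 71.0 at CT1 without SV384 and SV385. At CT17 the controls held 109, 111, 113 and 128 counts and the Bmal1iec-/- mice 45.5, 53.4, 59.6 and 77.2. The means of the controls were thus higher at night and those of the Bmal1iec-/- mice at CT1 and CT5, with no overlap at CT13 and CT17. At CT1 and CT5 the groups overlapped, and at CT5 the Bmal1iec-/- mouse SV477 held 140.0 (others 67.8 to 79.0). Fitted peaks lay at CT16.7 and CT3.0. JTK_cycle called *Acaa1b* rhythmic in Bmal1fl/fl mice (exact p = 4.6e-05) and narrowly in Bmal1iec-/- mice (exact p = 0.0497). Without the pair the Bmal1iec-/- call was lost (exact p = 0.18). Averaged over all circadian times, day and night together, the log2 fold change was -0.12 and did not pass (edgeR adjusted p = 0.56). Windows of 75 bases in the transcripts of *Acaa1b* were found in *Acaa1a* in 24.4% of cases, and those of *Acaa1a* in *Acaa1b* in 9.5%. Some reads may thus match both genes, so both counts are uncertain. The authors' paired reads were longer than these windows and had to pass a threshold of mapping quality. The shares therefore do not measure how many reads were affected. *Hsd17b4*, the second bifunctional enzyme, was rhythmic in both genotypes (JTK_cycle exact p = 6.22e-07 and 3.37e-05). From CT1 to CT21 *Hsd17b4* averaged 525, 453, 419, 512, 622 and 624 normalised read counts in Bmal1fl/fl mice and 675, 506, 449, 451, 559 and 609 in Bmal1iec-/- mice, with 558 at CT1 without the pair. Its fitted peak lay at CT19.5 (SE 0.383 h) in Bmal1fl/fl mice and at CT22.6 (SE 0.66 h) in Bmal1iec-/- mice, and at CT21.9 without the pair.

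Among the PPAR targets of lipid handling, *Ucp2*, an uncoupling protein of the inner mitochondrial membrane (chromosome 7, 100493337 to 100502020 on the plus strand), had the smallest adjusted p of the 33 members for a changed rhythm. From CT1 to CT21 its means in Bmal1fl/fl mice were 1659.9, 1917, 2634, 2942, 2458 and 2151 normalised read counts, and in Bmal1iec-/- mice 2204, 1925, 2071, 2049, 1994 and 1845. At CT13 the 4 Bmal1fl/fl mice held 2813, 2855, 3008 and 3093 counts and the 4 Bmal1iec-/- mice 1949, 1989, 2127 and 2132. The Bmal1iec-/- mice were below all controls at CT9, CT13, CT17 and CT21, above them at CT1, and overlapped them at CT5. At CT1 the controls ranged from 1589 to 1762, and the 2 Bmal1iec-/- mice beside SV384 and SV385 held 1915 and 1931. Averaged over the times the log2 fold change was -0.16 (SE 0.0552, edgeR adjusted p = 0.041), and -0.22 over 46 mice (edgeR adjusted p = 0.000427). The call of *Ucp2* was lost in 33 of 48 fits that left out 1 mouse, with an edgeR adjusted p of up to 0.0786, and without the filter for low expression or the term for time.

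*Plin2*, which coats lipid droplets (chromosome 4, 86648386 to 86670060 on the minus strand), also lay below the controls for most of the cycle. In Bmal1fl/fl mice it climbed through 265, 315, 370.0, 422, 463 and 465 normalised read counts from CT1 to CT21. In Bmal1iec-/- mice the means were 410.2, 322, 289, 310.4, 337 and 355, and 283 at CT1 without SV384 and SV385. At CT17 the controls held 438, 447, 481 and 487 counts and the Bmal1iec-/- mice 312, 326, 349.8 and 359. The Bmal1iec-/- mice lay below all controls at the 4 times from CT9 to CT21. Over 48 mice the log2 fold change of -0.17 did not pass (SE 0.0786, edgeR adjusted p = 0.146), and over 46 mice it was -0.28 and passed (edgeR adjusted p = 8.5e-05).

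*Angptl4*, an inhibitor of lipoprotein lipase induced by fasting, had the largest fitted amplitude of the 33 members in both genotypes, 1.24 (SE 0.17) and 0.56 (SE 0.177) on the log2 scale, on low counts. It was chosen for this description after its values were seen. Bmal1fl/fl mice averaged 16.4 ± 3.81 normalised read counts at CT9 and 90.2 ± 15.1 at CT21, and Bmal1iec-/- mice 24.2 ± 10.8 and 61.4 ± 30.7. At CT17 the controls held 74.8, 79.8, 88.9 and 112 counts and the Bmal1iec-/- mice 20.3, 50.6, 50.8 and 69.0, without overlap. *Angptl4* was rhythmic in both genotypes (JTK_cycle exact p = 0.00189 and 0.0123).

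*Acot2*, a mitochondrial thioesterase, was higher in Bmal1iec-/- mice by 0.36 on the log2 scale (SE 0.117, edgeR adjusted p = 0.0325), and by 0.32 over 46 mice, where it did not pass (edgeR adjusted p = 0.0788). At CT13 its counts ran from 8.62 to 14.5 in Bmal1fl/fl mice and from 26.2 to 29.3 in Bmal1iec-/- mice. *Acot1*, its cytosolic neighbour, read 0.26 (SE 0.117, edgeR adjusted p = 0.147). Of the 75-base windows of *Acot2*, 20.5% are shared with *Acot1*, and 11.2% the other way, so that both are uncertain. *Pdk4*, the kinase that shuts off pyruvate dehydrogenase when fat is burned, had the highest log2 fold change of the members, 0.44 (SE 0.156), and did not pass (edgeR adjusted p = 0.0532). It was chosen after its values were seen. At CT9 *Pdk4* held between 57.8 and 76.1 normalised read counts in Bmal1fl/fl mice and between 95.4 and 150.1 in Bmal1iec-/- mice, and the groups were apart at CT5 as well. Over the 6 times its means ran from 67.3 at CT9 to 175 at CT21 in Bmal1fl/fl mice and from 121 at CT13 to 264 at CT5 in Bmal1iec-/- mice. The fitted peaks of *Pdk4* lay at CT21.4 and CT2.8, and its change of rhythm did not pass (edgeR adjusted p = 0.121).

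*Cd36*, the fatty acid translocase, and *Fabp2* did not pass. *Cd36* had a log2 fold change of -0.32 (SE 0.183, edgeR adjusted p = 0.27), and its counts ran from 46.2 to 293 in Bmal1fl/fl and from 23.2 to 309 in Bmal1iec-/- mice. Adipocyte markers, of which *Lep* had a median at or under 3 counts, summed to 10.1 to 327 CPM in Bmal1fl/fl mice (median 58.1) and 5.84 to 183 in Bmal1iec-/- mice (median 19.6), with 1 of the 6 lower in Bmal1iec-/- mice. Fat cells express *Cd36*, *Pparg*, *Plin2* and *Angptl4*, and the part of fat in these values was not tested. *Fabp2* read 0.18 (SE 0.0707, edgeR adjusted p = 0.0902). From CT1 to CT21 it averaged 920.0, 1273, 1422, 1328, 1165 and 801 normalised read counts in Bmal1fl/fl mice, a rise into the late day (JTK_cycle exact p = 3.37e-05). In Bmal1iec-/- mice it averaged 1391, 1426, 1329, 1542, 1209 and 883 (exact p = 0.0921), and with 1177 at CT1 without SV384 and SV385 it was called rhythmic (exact p = 0.0113).

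The differences were also set out by time. At CT1 the 4 Bmal1iec-/- mice lay above the 4 controls for 13 of 33 members and below for 1, *Cd36*, against 10.8% and 8.43% of all genes tested. At CT5 the counts were 8 above and 1 below (2.21% and 1.85% of genes), and at CT9 3 above and 3 below (1.98% and 2.25%). At CT13 4 members lay above and 4 below (6.63% and 6.38%), at CT17 1 above and 4 below (2.05% and 2.7%), and at CT21 0 above and 3 below (2.24% and 2.33%). The members above at CT5 were *Slc25a20*, *Acadm*, *Hadh*, *Hadha*, *Hadhb*, *Acaa2*, *Pdk4* and *Acot2*. Those below at CT21 were *Acaa1a*, *Plin2* and *Ucp2*. The median log2 ratio over the members was 0.41 at CT1, 0.16 at CT5, 0.05 at CT9 and at CT13, and 0.01 at CT17 and at CT21. Without SV384 and SV385 the CT1 median was 0.13, below that of CT5. The 2 remaining Bmal1iec-/- mice of CT1 lay above the 4 controls for 13 members and below for 1, against 16.7% and 14.2% of genes.

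**Figure D3:**
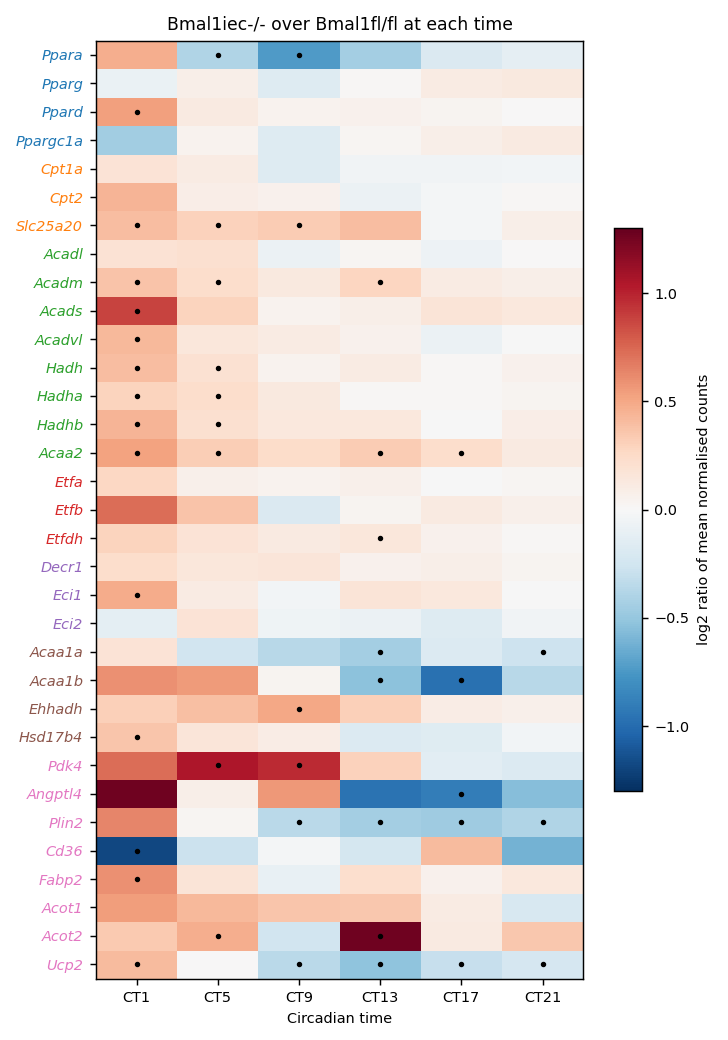
Log2 ratio of the mean normalised read counts, Bmal1iec-/- over Bmal1fl/fl mice, for the 33 members tested (rows, coloured by role as in the plot of log2 fold changes) at each circadian time (columns). Red is higher and blue lower in Bmal1iec-/- mice, and a dot marks groups of 4 that do not overlap. The CT1 column, which holds SV384 and SV385, is mostly red, and *Ucp2* and *Plin2* carry dots on blue from CT9 to CT21.

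JTK_cycle, which tests each gene for a 24 h rhythm with an exact null distribution, called 29 of the 33 members rhythmic in Bmal1fl/fl mice and 16 in Bmal1iec-/- mice. Of the 14618 genes tested, 49.7% and 29.2% were called, and of the 32527 genes with a count, 24.0% and 14.2%. In both genotypes 13 members were rhythmic (22.5% of genes), in Bmal1fl/fl mice alone 16 (27.2%) and in Bmal1iec-/- mice alone 3, *Cpt1a*, *Acadl* and *Etfa* (6.69%). Of these 3, *Cpt1a* and *Etfa* lost the call without the pair SV384 and SV385 (JTK_cycle exact p = 0.322 and 0.28). *Acadl* kept it (JTK_cycle exact p = 0.00349). Without SV384 and SV385 there were 12 rhythmic members in Bmal1iec-/- mice, 11 of them also rhythmic in Bmal1fl/fl mice. The share of all genes was not counted without the pair. These counts set calls side by side and do not test a difference for a gene. The call was made in Bmal1fl/fl mice alone for 3 of the 4 receptor and coactivator genes, for 5 of 9 targets of lipid handling, for 4 of 8 mitochondrial enzymes and for 1 of 4 peroxisomal members, *Acaa1a* (exact p = 8.42e-05 in Bmal1fl/fl and 1 in Bmal1iec-/- mice).

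Rhythmic members of Bmal1fl/fl mice peaked mostly in the night, 20 of 29 between CT12 and CT24. The oxidising enzymes *Hadha*, *Hadhb*, *Acaa2*, *Ehhadh* and *Hsd17b4* peaked at CT20.7, CT21.7, CT22.4, CT21.6 and CT19.5. In Bmal1iec-/- mice 13 of 16 rhythmic members peaked between CT0 and CT12, and without SV384 and SV385 7 of 12. Peak times were not counted over all rhythmic genes, so these counts do not set the members apart from other genes. Some peaks lay close to the cut between day and night, such as that of *Ppara* in Bmal1fl/fl mice. In Bmal1iec-/- mice *Hadha*, *Hadhb* and *Acaa2* peaked at CT0.1 over 48 mice and at CT23.7, CT23.7 and CT23.3 without the pair. *Slc25a20* peaked at CT2.1 ± 1.07 h (SE) in Bmal1fl/fl mice and at CT4.3 ± 0.546 h in Bmal1iec-/- mice.

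Amplitudes were fitted as a cosine on log2 CPM. Over the members the median was 0.22 in Bmal1fl/fl and 0.16 in Bmal1iec-/- mice, against 0.19 and 0.16 over all genes tested. The Bmal1fl/fl amplitude was the larger in 22 of 33 members, against 62.5% of genes, and without SV384 and SV385 in 28 of 33, against 67.5%. *Ucp2* went from 0.38 (SE 0.0347) to 0.03 (SE 0.0426), *Ppara* from 0.44 (SE 0.0636) to 0.14 (SE 0.0844), and *Plin2* from 0.37 (SE 0.0583) to 0.18 (SE 0.0739). Without the pair these Bmal1iec-/- amplitudes were 0.09, 0.18 and 0.10. *Acaa1a* went from 0.22 (SE 0.0464) to 0.03 (SE 0.0462), and *Pparg* from 0.34 (SE 0.0479) to 0.27 (SE 0.0506). Without the pair the lowest Bmal1iec-/- amplitude of the 4 peroxisomal members, among them *Acaa1a*, was 0.0677.

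**Figure D4:**
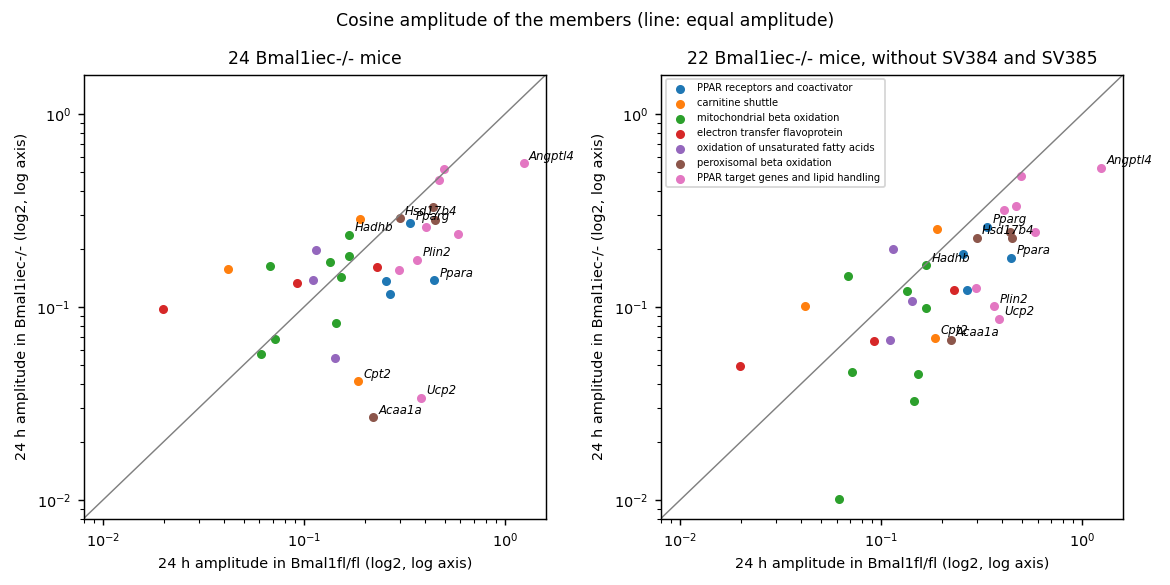
Fitted 24 h amplitude of the 33 members on log2 CPM, in Bmal1fl/fl mice (horizontal axes) against Bmal1iec-/- mice (vertical axes), both on log scales, over all 24 Bmal1iec-/- mice (left) and 22 (right). Points under the line have the larger amplitude in Bmal1fl/fl mice, 22 of 33 on the left and 28 of 33 on the right.

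The change of rhythm itself was tested in edgeR on the cosine and sine terms between the genotypes. It passed for 5 of 33 members, where 1.92% of all genes passed. The adjusted p was 5.81e-05 for *Ucp2*, 0.000484 for *Acaa1b*, 0.00815 for *Plin2*, 0.0361 for *Ppara* and 0.0367 for *Hsd17b4*. Without SV384 and SV385, *Ucp2* and *Acaa1b* passed in edgeR (adjusted p = 0.000528 and 0.00211), and *Plin2*, *Ppara* and *Hsd17b4* did not (adjusted p = 0.0706, 0.118 and 0.163). Of the 15073 genes tested without the pair, 141 passed. Control mice bore on the count too, which fell to 3 without the Bmal1fl/fl mouse SV396 at CT13 or SV455 at CT1, *Ppara* and *Hsd17b4* losing the call. *Acaa1a*, rhythmic by JTK_cycle in Bmal1fl/fl mice alone, did not pass the test of the change (edgeR adjusted p = 0.162).

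Split by period, 12 members were higher in Bmal1iec-/- mice in the day and 0 lower, against 4.65% and 2.65% of genes. At night 1 was higher, *Acot2*, and 5 lower, *Acaa1a*, *Acaa1b*, *Angptl4*, *Plin2* and *Ucp2*, against 1.53% and 1.85% of genes. Without SV384 and SV385 the day count was 3, *Slc25a20*, *Acadm* and *Acaa2*, while the night had the same 5 lower and 3 higher. The shares of all genes by period were not counted without the pair. The day difference lay above the night difference in 29 of 33 members, and in 27 over 46 mice, against 48.7% of all genes over 48. Night log2 fold changes were -0.62 for *Acaa1b* (edgeR adjusted p = 0.00248), -0.79 for *Angptl4* (edgeR adjusted p = 0.0289), -0.43 for *Plin2* (edgeR adjusted p = 0.00353), -0.36 for *Ucp2* (edgeR adjusted p = 0.00619) and -0.30 for *Acaa1a* (edgeR adjusted p = 0.0129). The interaction of genotype and period passed for 2 members, *Acaa1b* (-1.01, SE 0.193, edgeR adjusted p = 0.00759) and *Angptl4* (-1.47, SE 0.338, edgeR adjusted p = 0.0486), where 0.137% of genes passed. Over 46 mice it read -0.89 for *Acaa1b* (edgeR adjusted p = 0.0364) and -1.13 for *Angptl4*, which no longer passed (edgeR adjusted p = 0.19). There the interaction passed for 8 of 15073 genes.

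**Figure D5:**
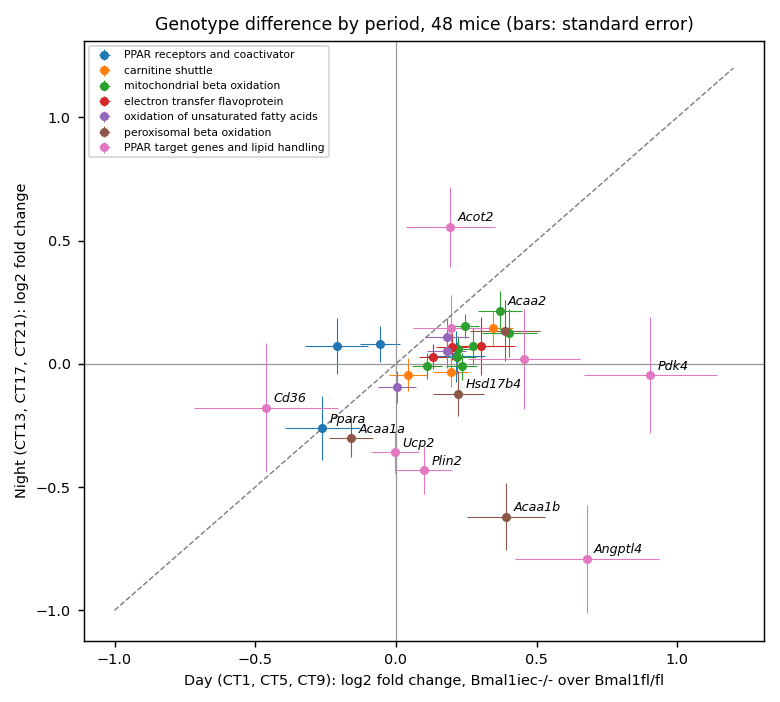
Log2 fold change of Bmal1iec-/- over Bmal1fl/fl mice in the day (CT1, CT5 and CT9, horizontal axis) against the night (CT13, CT17 and CT21, vertical axis) for the 33 members over 48 mice, coloured by role, with bars of 1 standard error and a dashed line of equal difference. *Acaa1b* lies at 0.39 by day and -0.62 by night, and 29 of the 33 points lie under the line.

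The rest of the pathway was read from 96 further genes, of which 82 were tested, 9 higher and 15 lower in Bmal1iec-/- mice, against 6.4% and 5.56% of all genes. Other mitochondrial oxidation genes were higher in 3 of 15 cases and lower in 0. Genes of ketone bodies were higher in 3 of 4 cases and lower in 0 (median log2 fold change 0.18), with 3 higher over 46 mice as well. Other peroxisomal genes were higher in 1 and lower in 1 of 20, the higher one being *Ech1*, a dienoyl-CoA isomerase (0.24, SE 0.0396, edgeR adjusted p = 1.25e-05). Fatty acid activation and uptake was lower in 7 of 14 cases and higher in 0 (median log2 fold change -0.19), with the acyl-CoA synthetase *Acsl3* at -0.45 (SE 0.0584, edgeR adjusted p = 1.11e-07). Other PPAR targets were lower in 5 of 17 cases (median log2 fold change -0.22) and higher in 1, *Retsat* (0.23, SE 0.0444, edgeR adjusted p = 0.000254). The lower ones included *Cyp4b1*, a fatty acid hydroxylase, at -1.97 (SE 0.114, edgeR adjusted p = 4.97e-19), and *Ephx2*, the soluble epoxide hydrolase, at -0.43 (SE 0.062, edgeR adjusted p = 1.41e-06). Receptor partners and corepressors were higher in 1 and lower in 2 of 12 cases. JTK_cycle called 56 of the 96 genes rhythmic in Bmal1fl/fl and 33 in Bmal1iec-/- mice, against 24.0% and 14.2% of genes with a count, or 49.7% and 29.2% of genes kept by the filter.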

How the data were processed

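Colon RNA of 48 mice was sequenced from TruSeq Stranded mRNA libraries. Per the submitters' processing notes, the authors used FastQC 0.11.5, Trimmomatic 0.39, STAR 2.7.5c with mm10, SAMtools 1.3.1, featureCounts 1.4.6 and DESeq2 1.22.0. What they deposited is a table of whole-number read counts per gene that were not normalized. The annotation version and strand setting are not given in the sources used here.

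Genes were named and placed with GENCODE vM21 (55141 of 55401 identifiers matched). Genes kept by filterByExpr were tested over all 48 mice by the quasi-likelihood F test of edgeR 4.0.16 after TMM scaling, with p-values adjusted by Benjamini-Hochberg over all genes tested and a threshold of 0.05, for genotype beside circadian time, for a changed cosine rhythm, and for genotype by period. Rhythms were tested by JTK_cycle, coded anew (period 24 h, a phase every 2 h, exact null, p adjusted over the 12 phases, threshold 0.05) on counts divided by DESeq2 1.42.0 size factors. Cosine amplitudes were fitted on log2 CPM with a prior count of 2. R 4.3.3, limma 3.58.1, Python 3.11.15, numpy 2.4.6, pandas 2.3.3 and matplotlib 3.10.9 were used, and the tests were checked on simulated data.

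The members, gene lists and tests were chosen with earlier results of these data known. Values by time were given for the receptor and coactivator genes and for members called in any of these tests, at most 16 by smallest adjusted p, and the other members by counts, ranges and examples. A result for 1 further pathway gene is not reported here. The authors' normalized values rest on 46 mice, so results were also computed without SV384 and SV385. Nothing names separate litters or batches, so p-values measure the spread between these mice. Totals of 3144997 to 4785844 reads per mouse allow up to 3 counts behind a count of 0, for counting error only.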

Additional observations from a re-analysis of the deposited data

Results flagged for a closer look

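Changes of rhythm and period differences were tested between the genotypes over 48 mice. The edgeR adjusted p of the changed rhythm was 5.81e-05 for *Ucp2*, 0.000484 for *Acaa1b*, 0.00815 for *Plin2*, 0.0361 for *Ppara* and 0.0367 for *Hsd17b4*. The night minus day difference of the log2 fold change was -1.01 for *Acaa1b* and -1.47 for *Angptl4*. Over 46 mice the calls of *Plin2*, *Ppara*, *Hsd17b4* and *Angptl4* were lost, and *Angptl4* lost its call in 29 of 48 fits that left out 1 mouse.

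Single mice stood far from the other 3 of their group, by Dixon's test at its 95% critical value for groups of 4, in 15 of 240 groups over 20 genes. Chance gives about 1 in 20 such groups. In Bmal1iec-/- mice at CT1, SV385 held 112 normalised read counts of *Angptl4*, where the others held 29.6 to 37.7. At CT5, SV477 held 140.0 of *Acaa1b* (others 67.8 to 79.0), and at CT9 SV418 held 249.8 of *Ppargc1a* (others 139 to 156). At CT17, SV416 was low for *Hadha* with 1203 (others 1476 to 1489) and for *Hadhb* with 1047 (others 1220 to 1239), while SV399 held 1382 of *Hadh* (others 1300 to 1307). At CT21, SV471 was high for *Ppargc1a* with 195 (others 136 to 144) and low for *Hsd17b4* with 524 (others 630 to 645). Also at CT21, SV470 held 441 of *Acaa1a* (others 374 to 379) and SV445 held 1667 of *Ucp2* (others 1889 to 1913).

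In Bmal1fl/fl mice, SV454 held 594 of *Acaa2* at CT1 (others 657 to 669). At CT17, SV398 was low for *Slc25a20* with 431 (others 595 to 621) and high for *Ehhadh* with 603 (others 453 to 478). SV453 held 1286 of *Hadhb* (others 1147 to 1166) and SV417 held 539 of *Hsd17b4* (others 641 to 658), both at CT17.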

How the results depend on the processing

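Members called between the genotypes numbered 13. They numbered 0 when the test was set against a fold change of 1.5, 8 without a term for time and 10 without the mice of CT1. They numbered 15 in DESeq2 and 17 with the contrast averaged over the 6 times. Without the mice of CT1, *Acads*, *Acot2*, *Hadh* and *Hadha* lost the call and *Plin2* gained it. Leaving out 1 mouse gave 10 to 17, of which 9 to 15 higher and 1 to 4 lower. *Ppara* and *Ucp2* each lost this call in 33 of 48 such fits and *Hadha* in 11. Rhythmic members of Bmal1iec-/- mice numbered 16, 12 over 46 mice and 7 with q values over all genes, and 12 to 17 with 1 mouse left out. In Bmal1fl/fl mice 29 were rhythmic, 20 with q values, 27 with another treatment of ties chosen after seeing the data, and 23 to 29 with 1 mouse left out. The 5 changed rhythms fell to 2 over 46 mice and ranged from 3 to 6 with 1 mouse left out, at 3 without the Bmal1iec-/- mouse SV385 at CT1 or the Bmal1fl/fl mice SV396 at CT13 and SV455 at CT1. The 2 day to night differences fell to 1 over 46 mice and to 1 without the filter on low counts, and ranged from 1 to 2 with 1 mouse left out, *Angptl4* losing the call in 29 of 48 fits. The causes were not tested. Of 1099 recomputed values of named members, 940 kept their side of the threshold without a reversal, 159 lost the call and 0 reversed. The adjusted p of a changed rhythm is counted among them and has no direction that could reverse. At this depth the precision of *Acot1*, *Acot2* and *Angptl4* was limited, and *Fabp1* was too low to test. No paired analysis was possible because the genotypes share no replicate numbers.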
